A study of Mus musculus with 4 samples.

Results

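The 10 genes described here are the primitive streak and early mesoderm regulators T, Mixl1, Eomes, Mesp1, Mesp2, Gsc, Evx1, Tbx6, Msgn1 and Lhx1, chosen by symbol, and all 10 were found among the 24421 genes of the count files. RNA of the mouse embryonic stem cell (ESC) line R1 was sequenced by the authors with Illumina TruSeq, and the data comprised 2 Undiff and 2 Day4 libraries with between 32099074 and 47730944 fragments counted on genes. Undiff cells received no retinoic acid (RA, a vitamin A metabolite), and Day4 cells were embryoid bodies grown for 4 days and then treated for 4 days with RA, at 2 µM in the paper and the series text but at 2 mM in the treatment label. The paper's methods describe Undiff as R1 cells maintained with leukaemia inhibitory factor, whereas its results section and the labels call these cells embryoid bodies. For Undiff, the paper's first figure gives 4 days of culture in growth medium. R1 is a single established line, and no library between Undiff and Day4 was analysed here. RA, culture without that factor, growth in low adherence dishes and the longer time in culture cannot be told apart in this comparison.

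The primitive streak is the posterior structure of the gastrulating embryo through which epiblast cells pass to become mesoderm and endoderm. Nodal, Wnt, bone morphogenetic protein (BMP) and fibroblast growth factor (FGF) signals induce it, and the T-box factors T (Brachyury) and Eomes are among the first genes that respond. Mixl1, Gsc, Evx1 and Lhx1 encode homeodomain factors of different streak regions, Mesp1 marks the earliest cardiac and cranial mesoderm, and Tbx6, Msgn1 and Mesp2 act in the presomitic mesoderm, from which somites form. Some of these genes are used again later, Lhx1 in the intermediate mesoderm and kidney and, like Evx1, in neurons of the spinal cord.

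The state of the libraries was checked on gene lists, with levels in CPM, the usual depth-scaled fragment count of a gene, here relative to the TMM-corrected total of fragments on genes. Of 8 pluripotency genes, 7 were differentially expressed and lower in Day4, and the summed level of all 8 went from between 2506 and 2702 to between 58.5 and 60.4 CPM. The highest and lowest changes were those of Tbx3, from 15.7 ± 2.98 to 38.5 ± 1.28 CPM, and of Zfp42, from 625.6 ± 69.5 to 2.09 ± 0.235 CPM (SD, n = 2 each), and those next to them were of Klf4 (-3.07) and Pou5f1 (-7.87). All 8 RA response genes were higher in Day4, from Crabp2, a cellular RA-binding protein, and Cyp26a1 with the smallest changes to Rarb and Cyp26b1, an RA-degrading enzyme, with the largest. In bulk RNA, fewer cells that express a gene and less RNA per cell cannot be told apart.

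Of the 10 regulators, T, Eomes and Mesp2 were lower in Day4, Lhx1 and Evx1 were higher, and the other 5 did not pass the thresholds of a differentially expressed gene (DEG). To be a DEG, a gene needed a mean of 5 or more normalized counts, a change of 1 or more on the log2 scale in either direction and, from edgeR's quasi-likelihood test, an adjusted p no higher than 0.05. Standard errors given here are the absolute log2 fold change divided by the square root of that test's F statistic. With few counts in a state they can be smaller than counting error alone would give. Of the 19891 genes tested, 42.8% were DEGs, 22.2% higher and 20.6% lower in Day4, so that 5 of 10 is near the background. The minimum mean was reached by 7 of the 10 regulators, and 51.7% of all genes at that level were DEGs. By family, the T-box genes (T, Eomes, Tbx6) and the basic helix-loop-helix genes (Mesp1, Mesp2, Msgn1) held 3 DEGs, all lower, and the 4 homeodomain genes held 2, both higher. The median log2 fold change of the 10 was -1.61, beside -0.03 over all genes tested. With states at 3 counts or fewer set to that floor and Msgn1, at the floor in both states, left out, it was -0.56. The floor was set for T, Mesp1 and Gsc, so that this value depends on the floor and is not an estimated change.

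Both states were at a low level. In Undiff the 10 genes together took 461 fragments in replicate 1 and 331 in replicate 2, and in Day4 465 and 705. This was between 0.00103% and 0.00148% of the fragments on genes. The summed level was 12.8 and 10.6 CPM in Undiff, and 13.0 and 14.5 CPM in Day4, with the Day4 libraries slightly higher, whereas the make-up of the sum was very different. Lhx1 took 2.39% and 1.21% of these fragments in Undiff and 70.1% and 68.1% in Day4 (95% exact binomial intervals from 0.330% to 4.23% and from 64.5% to 74.2%). T, Eomes and Mesp2 took 25.4%, 41.4% and 15.0% in Undiff replicate 1, and 0.215%, 2.80% and 2.15% in Day4 replicate 1. Intervals cover counting error only.

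**Figure D1:**
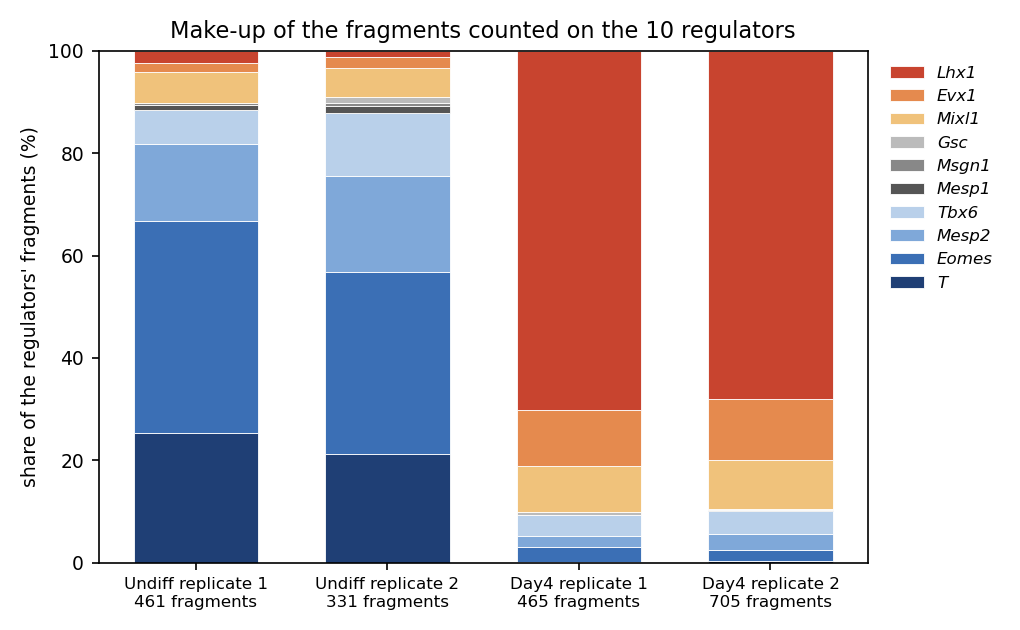
Share of the fragments counted on the 10 regulators (vertical axis, %) that each gene took in each library (horizontal axis, with the number of fragments). T, Eomes and Mesp2 (dark to light blue, from the bottom) made up most of both Undiff bars, and Lhx1 (red) took 70.1% and 68.1% of the Day4 bars.

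The sequences before the transcription start of the 5 DEGs are shown here because these genes carry the difference between the states, as 250 bases upstream of the RefSeq start on GRCm38.p6, the assembly of mm10, read 5′ to 3′ on the strand of the gene. Motifs were searched on both strands. They were the TCF/LEF core CTTTGAA, the site of the factors that mediate Wnt signals, the T-box site AGGTGTNA, the nuclear receptor site AGGTCA, which RA receptors bind in repeats, and the FOXH1 motif TGTGNATT, the site of a Nodal effector. Capitals mark a match, and no 2 matches overlapped.
T, chr17:8434173-8434422, plus strand: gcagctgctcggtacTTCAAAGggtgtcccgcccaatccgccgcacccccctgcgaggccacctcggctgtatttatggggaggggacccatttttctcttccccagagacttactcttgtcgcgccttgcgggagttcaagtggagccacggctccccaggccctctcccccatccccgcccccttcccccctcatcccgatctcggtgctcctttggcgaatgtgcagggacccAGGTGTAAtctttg
Eomes, chr9:118477939-118478188, plus strand: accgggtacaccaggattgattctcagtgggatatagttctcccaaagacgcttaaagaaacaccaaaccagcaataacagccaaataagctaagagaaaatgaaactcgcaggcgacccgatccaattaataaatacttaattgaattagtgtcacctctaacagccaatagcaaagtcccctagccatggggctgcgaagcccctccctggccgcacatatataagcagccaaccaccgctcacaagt
Mesp2, chr7:79810477-79810726, plus strand: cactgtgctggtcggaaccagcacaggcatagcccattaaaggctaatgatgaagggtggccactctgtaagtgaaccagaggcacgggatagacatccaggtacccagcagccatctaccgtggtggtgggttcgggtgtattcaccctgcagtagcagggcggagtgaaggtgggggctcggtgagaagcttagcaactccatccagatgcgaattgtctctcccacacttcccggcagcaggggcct
Lhx1, chr11:84525535-84525784, minus strand: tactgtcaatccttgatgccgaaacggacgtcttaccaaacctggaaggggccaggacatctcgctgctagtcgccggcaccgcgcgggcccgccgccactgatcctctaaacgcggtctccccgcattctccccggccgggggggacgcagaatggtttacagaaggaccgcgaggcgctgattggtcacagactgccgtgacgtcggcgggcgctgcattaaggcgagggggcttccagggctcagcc
Evx1, chr6:52313248-52313497, plus strand: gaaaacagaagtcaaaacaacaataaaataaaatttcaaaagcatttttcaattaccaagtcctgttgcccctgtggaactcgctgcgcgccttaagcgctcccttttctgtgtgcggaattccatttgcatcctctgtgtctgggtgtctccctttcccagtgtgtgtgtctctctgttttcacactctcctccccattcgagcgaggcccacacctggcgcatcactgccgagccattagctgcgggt
In T, the TCF/LEF core began 235 bases before the start (as its reverse complement) and the T-box site 14 bases before it. Of the 9 regulators with an entry in the sequence table, all but Mixl1, 3 held the TCF/LEF core, which 4.46% of the 32851 promoters of the table hold. Besides T these were Mesp1 and Msgn1, in which the core began 73 and 143 bases before the RefSeq start. In GENCODE, Mesp1 starts further upstream, at 79793788, so that its match lies inside the annotated gene. Both matches are shown within 30 bases.
Mesp1, chr7:79793645-79793674, minus strand: ccctgctatggTTCAAAGggttcaggccct
Msgn1, chr12:11209073-11209102, minus strand: cttggttcttcCTTTGAActccctccacca
The T-box site was found in T alone of the 9 and in 2.68% of all promoters. The nuclear receptor site and the FOXH1 motif were found in none of the 9, and in 14% and 3.18% of all promoters. The motifs were chosen with these counts known, and a match is a description of the letters, not evidence of binding.

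T (chromosome 17, 8434423 to 8442496 of GRCm38, plus strand), which is required for posterior mesoderm and the notochord, had 117 counts in Undiff replicate 1 and 70 in replicate 2, against 1 and 3 counts in Day4. The Undiff libraries lay far above both Day4 libraries, and replicate 1 lay above replicate 2. The level was 2.75 ± 0.721 CPM in Undiff and 0.0447 ± 0.0238 CPM in Day4 (SD, n = 2 each). Because Day4 had so few counts, the size of the fall is given as a ratio of counts, which was 58.8, with a 95% exact interval of 22.6 to 218 for counting error (edgeR log2 fold change -5.78, standard error 0.45, adjusted p = 3.8e-08). The exact interval is wider than this standard error implies. The fall rested on 4 fragments in Day4, and the log2 fold change was -6.49 without Day4 replicate 2, the library with 3 of them.

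Eomes (chromosome 9, 118478212 to 118486132, plus strand), a T-box factor needed for the epithelial to mesenchymal transition of the streak and for definitive endoderm, had 191 and 118 counts in Undiff, and 13 and 15 counts in Day4. The states did not overlap, and here too Undiff replicate 1 was above replicate 2. Its level fell from 4.54 ± 1.09 to 0.335 ± 0.0390 CPM (SD, n = 2 each), or by 3.78 on the log2 scale (edgeR, standard error 0.28, adjusted p = 2.5e-08). Unlike T, it stayed above the floor of 3 counts in both Day4 libraries. Its annotated position overlaps that of the gene Gm33460, which was not analysed here. The part of Gm33460 in the counts of Eomes was not tested.

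Tbx6 (chromosome 7, 126781483 to 126785560, plus strand), which directs presomitic cells to a mesodermal instead of a neural fate, was not a DEG. It had 31 and 41 counts in Undiff, and 19 and 31 counts in Day4, or 0.863 and 1.31 CPM against 0.530 and 0.636 CPM. Both Day4 values were below both Undiff values, and the gap between the states was smaller than that between the Undiff replicates. The log2 fold change was -0.86 with a standard error of 0.31 in edgeR (adjusted p = 0.023, between 0.0073 and 0.21 over the alternatives). It passed the thresholds without Undiff replicate 1 (-1.14) and without Day4 replicate 2 (-1.04). Ppp4c ends 0.305 kb from the end of Tbx6 on the opposite strand and had between 4230 and 6863 counts, and its part in the counts of Tbx6 was not tested.

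Mesp2 (chromosome 7, 79810727 to 79813439, plus strand), which sets the segment borders of somites, had 69 and 62 counts in Undiff, and 10 and 22 counts in Day4. The Undiff replicates were close to each other, at 1.92 and 1.98 CPM, and the Day4 replicates lay further apart, at 0.279 and 0.451 CPM. The level fell from 1.95 ± 0.0431 to 0.365 ± 0.122 CPM (SD, n = 2 each), or by 2.36 on the log2 scale (edgeR, standard error 0.28, adjusted p = 4e-06).

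Its paralog Mesp1 (chromosome 7, 79792241 to 79793788, minus strand), 16.9 kb away and transcribed in the opposite direction, had 4 and 4 counts in Undiff, and 0 and 1 counts in Day4. The direction was that of Mesp2, on 9 fragments in all. The ratio of Undiff to Day4 counts was 10.1, with a 95% exact counting interval of 1.35 to 446.8 (adjusted p = 0.024 from edgeR, and 0.16 and 0.18 from DESeq2 with and without shrinkage), and its mean was too low for a DEG. Msgn1 (chromosome 12, 11208360 to 11208972, minus strand), a master regulator of presomitic mesoderm, had 2 and 2 counts in Undiff and none in Day4. Both states were at the floor, so no fold is given, and the depth allows a level of up to 0.0837 and 0.0615 CPM in Day4 replicates 1 and 2.

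Lhx1 (chromosome 11, 84518284 to 84525535, minus strand), a LIM-homeodomain factor of the head organizer and of nascent and intermediate mesoderm, had 11 and 4 counts in Undiff, and 326 and 480 counts in Day4. The Day4 libraries were close to each other after scaling, at 9.10 and 9.84 CPM, and far above Undiff, at 0.306 and 0.128 CPM. The level rose from 0.217 ± 0.126 to 9.47 ± 0.529 CPM (SD, n = 2 each), or by 5.39 on the log2 scale (edgeR, standard error 0.23, adjusted p = 7.7e-11). Its size depended on the few Undiff fragments, with a log2 fold change of 6.18 without Undiff replicate 1. Lhx1os, a noncoding gene that starts 0.124 kb from Lhx1 on the opposite strand, had 0 and 2 counts in Undiff, and 95 and 151 counts in Day4.

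Evx1 (chromosome 6, 52313498 to 52318378, plus strand), a homeodomain factor of the posterior streak, had 8 and 7 counts in Undiff, and 51 and 83 counts in Day4. Each Day4 library was well above both Undiff libraries. The level rose from 0.223 ± 0.000736 to 1.56 ± 0.197 CPM (SD, n = 2 each), or by 2.81 on the log2 scale (edgeR, standard error 0.34, adjusted p = 4.3e-06). Evx1 lies 52.6 kb from Hoxa13, the end of the HoxA cluster, which had no count in either Undiff library and 40 and 47 counts in Day4. Its paralog Evx2, at the end of the HoxD cluster, had 0 and 0 counts in Undiff, and 0 and 2 counts in Day4. Evx1 overlaps the antisense gene Evx1os, which was not analysed here, so that reads of the antisense transcript could not be told apart if these libraries were counted without strand.

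Mixl1 (chromosome 1, 180693043 to 180697034, minus strand), a paired-type homeodomain factor of streak mesoderm and endoderm, was not a DEG. It had 28 and 19 counts in Undiff, and 42 and 68 counts in Day4, or 0.779 and 0.607 CPM against 1.17 and 1.39 CPM. Both Day4 values lay above both Undiff values, by more than the gap between replicates. The log2 fold change was 0.89 with a standard error of 0.27 in edgeR (adjusted p = 0.009, between 0.0029 and 0.13 over the alternatives). It exceeded 1 in an edgeR fit without Undiff replicate 1 (1.09) and with all libraries thinned to the smallest total (1.14). Gsc (chromosome 12, 104471209 to 104473330, minus strand), a homeodomain factor of the organizer, had 0 and 4 counts in Undiff, and 3 and 2 counts in Day4. Its states overlapped, and a difference was not detectable at this depth.

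For 9 of the 10 regulators, all but Gsc, the libraries of the states did not overlap, beside 85.4% of all genes tested. An exact permutation test (two-sided) cannot go below p = 0.333 with 2 libraries against 2, and every adjusted p given here draws on a spread estimated with information from other genes, by edgeR or, where it is named, by DESeq2. An adjusted p no higher than 0.05, whatever the fold change and the mean, was found for 9 of the 10 and for 75.6% of all genes tested.

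**Figure D2:**
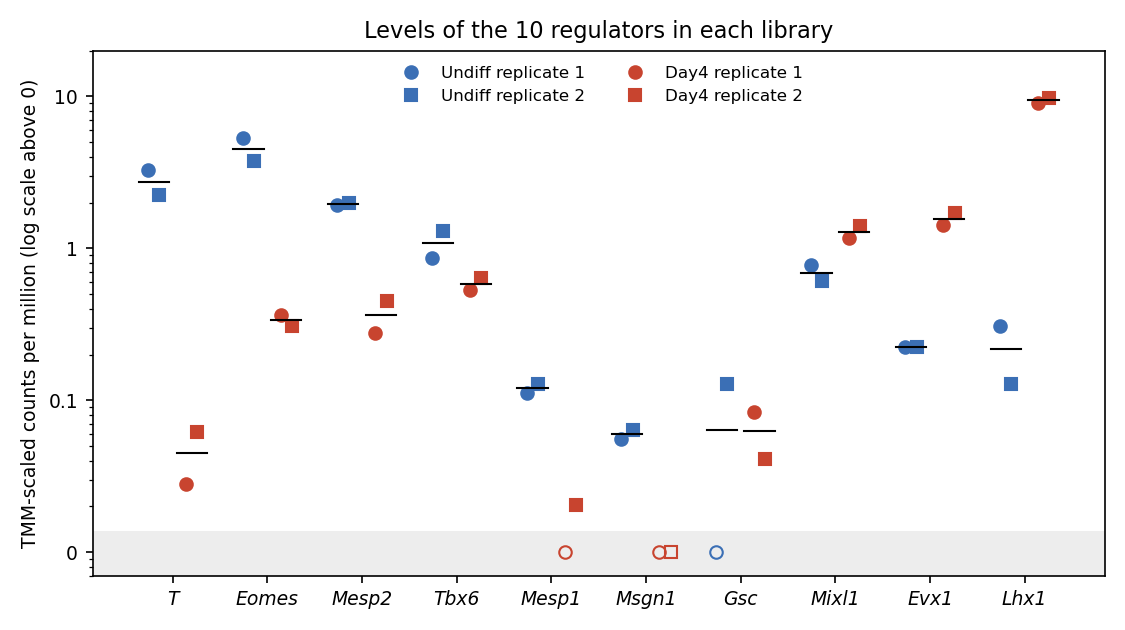
TMM-scaled CPM of each regulator (log scale above 0, with values of 0 as open symbols in the grey band) in the Undiff (blue) and Day4 (red) libraries, with circles for replicate 1, squares for replicate 2 and black lines for means above the grey band. T, Eomes and Mesp2 were lower and Evx1 and Lhx1 higher in both Day4 libraries, and Mesp1, Msgn1 and Gsc had at most 4 counts in any library.

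**Figure D3:**
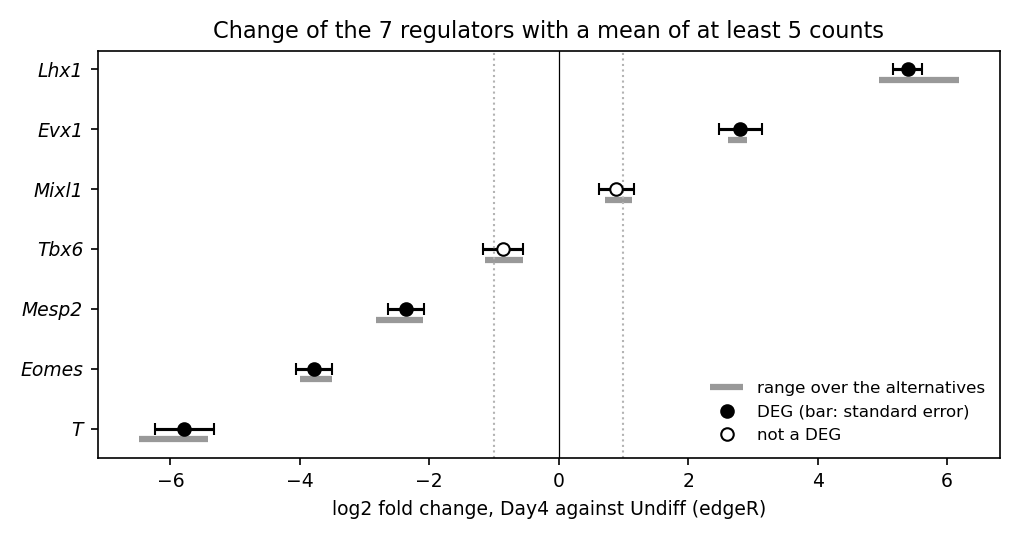
Log2 fold change of Day4 against Undiff from edgeR for the 7 regulators with a mean of 5 or more normalized counts (points with standard errors, filled for DEGs), above the range over the alternatives (grey). Standard errors were derived from the F statistic and can be smaller than counting error where a state had few counts. The 5 DEGs stayed beyond the dotted lines at an absolute value of 1, and the ranges of Mixl1 and Tbx6 crossed them.

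Per kb of exon, the highest of the 10 in Undiff were T, at 1.19 CPM per kb, Eomes, at 1.09, and Mesp2, at 1.00, and the replicate ranges of these 3 overlapped. Tbx6, at 0.602, and Mixl1, at 0.302, came next, each below the range of the gene before it. The other 5 were at most at 0.0975 CPM per kb, and the replicate range of Gsc overlapped those of Msgn1, Mesp1, Evx1 and Lhx1. The ranges of Msgn1 and Mesp1 also overlapped each other. Among the 19078 tested genes with a single length in GENCODE vM21, the level of T per kb was at percentile 44.7 in Undiff and 14.6 in Day4. In Day4 Lhx1 was the highest of the 10, at 2.33 CPM per kb and percentile 49.96, up from percentile 18.6. It was followed by Mixl1, at 0.559, and Evx1, at 0.543, whose replicate ranges overlapped, and by Tbx6, at 0.323, Mesp2, at 0.188, and Eomes, at 0.0807. T, at 0.0193 CPM per kb, was among the lowest 4 in Day4 with Gsc, Mesp1 and Msgn1.

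Ligands of the families that induce the streak were compared as a list of 18, of which Gdf1 had no count. Of the 17 tested, 6 rose and 9 fell as DEGs, with a median log2 fold change of -1.12. The 6 that rose were Wnt2b, Wnt5a, Wnt5b, Wnt11, Bmp2 and Bmp7. The 9 that fell were Nodal, Gdf3, Wnt3, Wnt3a, Wnt8a, Fgf3, Fgf4, Fgf8 and Fgf17. The background for this and the other lists was 42.8% DEGs among all genes tested, or 51.7% at the minimum mean. Nodal, the main inducer, fell from 58.2 ± 1.13 to 0.397 ± 0.0480 CPM and Wnt3, which starts T expression in the embryo, from 2.77 ± 0.340 to 1.27 ± 0.0600 CPM (SD, n = 2 each). Bmp4 was not a DEG, at 28.6 ± 4.34 and 19.0 ± 0.0552 CPM, and these 3 were named for their roles, after their values were seen. The lowest log2 fold changes of the list were those of Fgf4 (-10.58), an FGF of pluripotent cells, and of Gdf3 (-8.46), a Nodal-related ligand. The highest were those of Wnt2b (6.68) and Wnt11 (6.27), a Wnt ligand of cell movement. Wnt2b was at 0.642 ± 0.0416 CPM in Undiff and 65.9 ± 1.92 CPM in Day4.

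Of 15 secreted inhibitors, 6 rose and 3 fell, with a median log2 fold change of 0.77. The Nodal inhibitors Lefty2 (-7.56) and Lefty1 (-7.14) had the lowest changes, from 181.9 ± 18.8 to 0.949 ± 0.0792 CPM for Lefty2. The BMP modulator Bmper (7.85) and the Wnt inhibitor Sfrp1 (5.50) had the highest, with Sfrp1 from 29.6 ± 0.601 to 1342 ± 0.637 CPM (SD, n = 2 each). Of 30 receptors, cofactors and effectors, 11 rose and 7 fell, with a median of 0.76. All 30 reached the minimum mean, and their share of DEGs, 60%, was near the background of 51.7%. The Nodal co-receptor Tdgf1 (-11.21) and the Nodal effector Foxh1 (-5.70) had the lowest changes. The Wnt receptor Fzd1 rose from 1.33 ± 0.438 to 84.5 ± 0.574 CPM, and Acvr1c, a Nodal receptor, had no count in Undiff and 111 and 101 counts in Day4. The other 12 genes of this list were not DEGs.

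Among 31 other genes of the streak and nascent mesoderm, of which Noto had no count, 15 rose and 10 fell, with a median of 1.20. Otx2, a factor of the anterior epiblast, had 5389 and 3541 counts in Undiff and 0 and 1 counts in Day4. The highest were Foxf1, a factor of lateral mesoderm, with 2 counts in each Undiff library and 3158 and 4323 in Day4, and Lhx2, a relative of Lhx1, at 0.335 ± 0.159 and 106.5 ± 12.0 CPM (SD, n = 2 each). Of 27 presomitic and somite genes, 8 rose and 7 fell, with a median of 0.23. It was 0.01 with states at the floor set to it and the 5 genes at the floor in both left out. Ripply1, a partner of Mesp2 and Tbx6 in segment formation, fell from 6.72 ± 0.0173 to 0.0968 ± 0.0209 CPM and Tcf15, a factor of somite epithelium, from 27.5 ± 0.597 to 1.38 ± 0.0149 CPM. The highest were Foxc2, a forkhead factor of somites, with 5 and 1 counts in Undiff and 2071 and 2927 in Day4, and Rspo3, an activator of Wnt signals, at 0.468 ± 0.165 and 39.4 ± 4.63 CPM.

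The relatives of the regulators by sequence were counted in the same way. Of the 14 other T-box genes, 8 rose and 4 fell, whereas T and Eomes fell, with a median of 1.45 for the list. Tbx5, a factor of the heart and forelimb, had 1 and 0 counts in Undiff and 880 and 1339 in Day4. Tbx2, a repressor of the same family, went from 0.243 ± 0.108 to 126.3 ± 6.52 CPM (SD, n = 2 each). The lowest were Tbx19, with 6 and 13 counts in Undiff and none in Day4, and Tbx21, with 63 and 58 counts in Undiff and 1 in each Day4 library. Of the 11 other LIM-homeodomain genes, 8 rose, as Lhx1 did, and the other 3 were not DEGs, with a median of 2.71. Lhx2 and Isl1, a factor of motor neurons and heart precursors, had the highest changes (8.33 and 4.13), and Lhx6 and Isl2 the smallest among the DEGs (1.61 and 1.99).

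**Figure D4:**
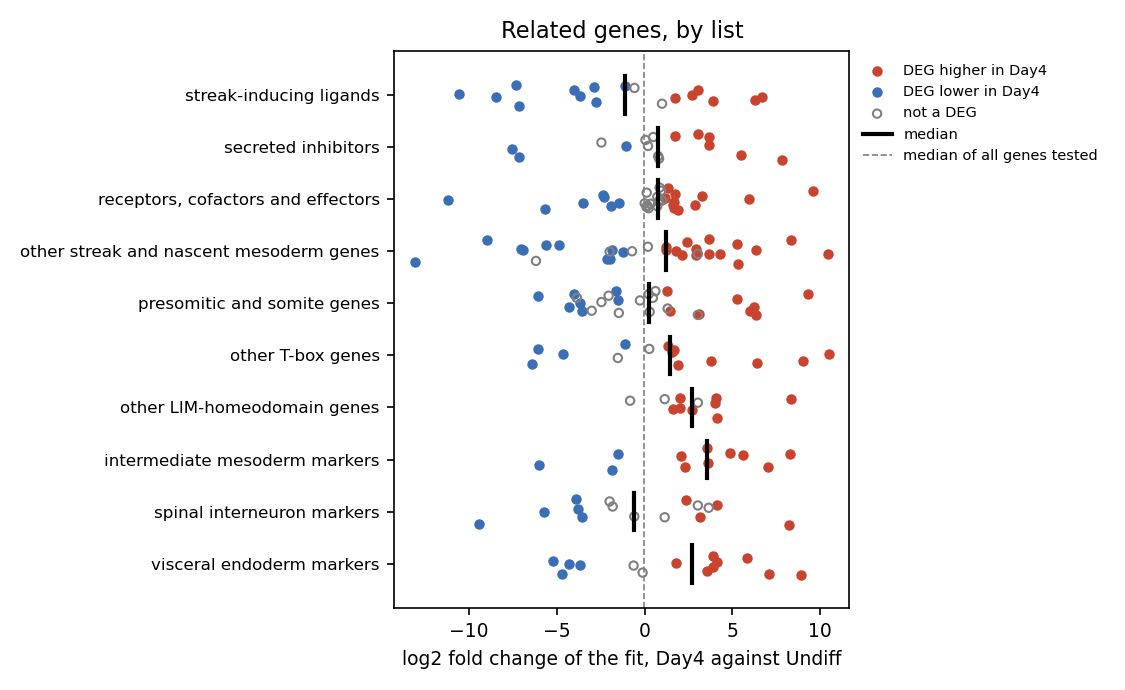
Log2 fold change of the fit (horizontal axis) for the genes of 10 lists (rows), coloured for DEGs, with black bars for list medians and a dashed line for the median of all genes tested (-0.03). Points of genes with 3 counts or fewer throughout a state depend on the prior count of the fit. Ligands of the streak-inducing families and inhibitors held DEGs in both directions, and the DEGs of the LIM-homeodomain list were all higher in Day4.

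Markers of cell types in which Lhx1, Evx1 and Eomes are also used moved between the states. Of 11 intermediate mesoderm markers, 8 rose and 3 fell, and their summed level was between 293.6 and 318.8 CPM in Undiff and between 432.1 and 433.2 CPM in Day4. Most of the sum was 1 gene in each state, Sall1 at 289.5 ± 16.3 CPM in Undiff and Wt1, a factor of the kidney and gonad, at 374.3 ± 2.93 CPM in Day4 (SD, n = 2 each). Without Sall1 the sum was between 15.6 and 17.7 CPM in Undiff and between 427.4 and 429.0 CPM in Day4, and without Wt1 between 285.9 and 310.8 CPM and between 55.7 and 60.9 CPM, so that its direction depended on the gene left out. Without both it was between 7.96 and 9.72 CPM in Undiff and between 51.0 and 56.8 CPM in Day4. Osr1, with 3 and 0 counts in Undiff and 511 and 738 in Day4, and Emx2, at 0.152 ± 0.0569 and 19.5 ± 2.38 CPM, had the highest changes, and Sall1 and Pax8 the lowest (-6.05 and -1.84).

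Of 15 spinal interneuron markers, 4 rose and 5 fell, and their sum was between 109.3 and 110.7 CPM in Undiff and between 45.8 and 48.1 CPM in Day4. The neuronal tubulin gene Tubb3, at 70.2 ± 2.11 CPM, held most of the Undiff sum, and Foxp2, a factor of several neuron and mesoderm-derived tissues, most of the Day4 sum, at 37.1 ± 2.63 CPM. Without Foxp2 the sum was between 109.3 and 110.5 CPM in Undiff and between 9.13 and 10.5 CPM in Day4. Without Tubb3 it was between 39.0 and 40.6 CPM in Undiff and between 40.4 and 43.4 CPM in Day4. Without both it was between 38.8 and 40.5 CPM in Undiff and between 4.41 and 5.19 CPM in Day4. Elavl3, a pan-neuronal gene, went from 19.2 ± 1.06 to 0.367 ± 0.113 CPM, Foxd3 fell to 1 and 0 counts, and Foxp2 and Dbx1 had the highest changes, with Dbx1 at 14 and 12 counts in Day4.

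Of 14 visceral endoderm markers, 8 rose and 4 fell, with a sum between 136.1 and 154.0 CPM in Undiff and between 651.2 and 659.4 CPM in Day4. The Day4 sum was mostly Gata4, at 257.0 ± 3.51 CPM, Gata6, at 275.7 ± 9.47 CPM, and Dab2, at 86.0 ± 1.65 CPM, the first 2 of which are also factors of heart and other mesoderm. Among the other markers, Cubn, an endocytic receptor, fell from 30.9 ± 3.66 to 2.45 ± 0.162 CPM and Rhox5 from 52.3 ± 6.95 to 2.67 ± 0.844 CPM, while the serum protein genes Apoa1 and Ttr rose, to 4.19 and 1.38 CPM. Wt1, Tubb3, Gata4, Dab2, Cubn, Rhox5, Apoa1 and Ttr were named after their values were seen. Afp, with no count in Undiff and 81 and 50 in Day4, and Gata6, from 2.05 ± 0.621 CPM in Undiff (SD, n = 2), had the highest changes of these, and Trf and Amn the lowest (-5.20 and -4.72). The part of these cell types in the rise of Lhx1 and Evx1 and in the fall of Eomes was not tested.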

How the data were processed

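The deposited values were raw counts of fragments per gene, made by the authors with STAR 2.4.2a (the version per the submitters' processing notes) on mouse mm10 and with htseq-count on UCSC iGenomes genes. The methods say that counting took account of the kind of library and name only Direct RNA, not TruSeq, as strand-specific. They give the TruSeq kit as v. 2, while the labels also name a strand-specific kit. Fragments without a gene, kept out of library sizes, were 12.1% and 13.2% of all in Undiff, and 7.50% and 7.74% in Day4. Genes without a count were removed (19891 left), counts were scaled by TMM, and Day4 was tested against Undiff with edgeR 4.0.16 (quasi-likelihood, Benjamini-Hochberg adjustment over all genes tested) in R 4.3.3. The study's methods used DESeq2 with the same thresholds, tried here as DESeq2 1.42.0. The script was tested on simulated data.

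The 2 replicates of a state were grown and treated separately, per the methods. Library sizes give a floor of 3 counts between 0.0615 and 0.0959 CPM, and a level at the floor in both states got no fold. A bound had been planned for states at the floor. With 1 to 3 counts the ratio with its exact interval was given instead. Intervals cover counting error only.

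The regulators and gene lists were chosen with earlier results of these data known. Named were all 10 regulators, of each other list the 2 highest and the 2 lowest log2 fold changes among DEGs with at least 10 normalized counts in one state, and genes that a result on a regulator turns on. A gene that this rule names is not reported here. Nodal, Wnt3, Bmp4 and the neighbouring genes were chosen after their values were seen. Positions, exon lengths and distances are from GENCODE vM21 on GRCm38, and promoters from RefSeq. The alternatives changed the scaling, the test, the filter, the depth, the block and the libraries.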

Additional observations from a re-analysis of the deposited data

How the results depend on the processing

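T, Eomes, Mesp2, Evx1 and Lhx1 were DEGs in the same direction under all 13 alternatives. The number of regulators called was between 5 and 7, and that of all genes between 8114, with DESeq2, and 9256. With no minimum on the mean count, 5 regulators instead of 3 were lower, the additional ones being Mesp1 and Msgn1. Leaving out 1 library at a time gave between 5 and 7 regulators, between 2 and 3 of them higher and between 3 and 4 lower. Mixl1 was called when libraries were thinned (log2 fold change 1.14) and without Undiff replicate 1 (1.09), and Tbx6 without Undiff replicate 1 (-1.14) or Day4 replicate 2 (-1.04). The adjusted p-values of Mixl1 and Tbx6 with DESeq2 and the study's settings were both 0.13. Where 1 library was left out, the lone library of its state was assumed to vary like those of the other state. The log2 fold change of T was between -6.49 and -5.42 and that of Lhx1 between 4.94 and 6.18 over these fits. The causes were not tested. A quasi-likelihood fit with edgeR's legacy method, chosen after seeing the data, gave 8518 DEGs, and adjusted p-values of 0.055 for Mesp1 and 0.097 for Msgn1. Mesp1, Gsc and Msgn1 were removed by edgeR's expression filter, so have no value there. Every list count kept within 1.5 times its main value under 12 alternatives. List counts were not taken with no minimum on the mean count. With the replicate block, 5 regulators and 8515 genes were DEGs. No shared effect of the replicate number was seen, as the differences between replicates 1 and 2 correlated at -0.01 across 16472 genes between the states. This cannot show whether libraries of the same number shared a culture or batch. Depth limits what can be said of Mesp1, Msgn1 and Gsc, with at most 4 counts in any library.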

Other observations

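The rise of Evx1 stood beside higher counts of the 5′ genes of the HoxA cluster, which were chosen after their values were seen. Hoxa11 had 0 and 7 counts in Undiff, and 131 and 125 counts in Day4, and Hoxa10 had 7 and 2 counts in Undiff, and 581 and 722 counts in Day4. Hoxd13, next to Evx2 in the HoxD cluster, had 41 and 26 counts in Undiff, and 37 and 55 counts in Day4, and its states overlapped.

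Values of other genes next to a regulator are given here. Anpep, near Mesp2, fell from 50.3 ± 2.68 to 8.89 ± 0.137 CPM (SD, n = 2 each), and Ypel3, near Tbx6, rose from 13.2 ± 0.884 to 32.7 ± 0.587 CPM. Lin9, near Mixl1, was not a DEG, at 35.1 ± 1.83 CPM in Undiff and 25.7 ± 0.275 CPM in Day4.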
